A study of Nasonia vitripennis with 39 samples.

Results

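CYP9AG7 is a cytochrome P450 gene of the parasitoid wasp Nasonia vitripennis. It is 1 of 14621 genes in the deposited tables and was picked for its expression in male heads, so its contrasts between sexes and between tissues are described here without a test. The series used the Whiting Polyploid Line (WPL), a wasp line with spontaneous polyploidy, and sequenced polyadenylated RNA to compare ploidies in each sex. The 39 libraries form 8 groups, all from WPL animals sampled 1 day after emergence. They are heads and abdomens of males with 1 or 2 chromosome sets (genotypes WPL_LSL_1N and WPL_LSL_2N in males) and of females with 2 or 3 sets (2N and 3N). Each group has 5 libraries, except the 2N female abdomens with 4. Libraries carry the names of the labels (B1A to B40A). Neither pooling of animals nor the pairing of heads with abdomens is stated in the labels, and p-values therefore cover only the spread between these libraries, which may be technical.

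Cytochrome P450 enzymes carry a heme group and use electrons from a reductase partner to insert oxygen into their substrates, which in insects include hormones, cuticular lipids, odorants, plant compounds and insecticides. CYP9 genes belong to the CYP3 clan, together with the CYP6 genes, and in the honeybee some CYP9 enzymes metabolise insecticides and plant compounds. No substrate of CYP9AG7 is given in the sources used here.

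The sums of estimated counts lay between 16.3 and 132 M and fell into 19 deep libraries of at least 32.9 M and 20 shallow ones of at most 25.1 M. In the male heads the classes are uneven, since 1 of 5 of the 1N and 4 of 5 of the 2N libraries are deep. The 2N female heads hold 5 shallow libraries and no deep one. The tissue labels were checked with 4 markers. The long-wavelength opsin gene Lop1, expressed in photoreceptors, had group means of 3517 to 5888 CPM (counts scaled to library size with TMM factors) in heads and at most 3.19 CPM in abdomens. Pdf, a clock neuropeptide of the brain, had means of 120 to 184 CPM in heads and at most 0.21 CPM in abdomens. The germ plasm genes oskar and nanos were highest in the female abdomens, where oskar averaged 1077 and 674 CPM in 2N and 3N. The 2N female head B21 stood apart with 95.2 CPM of oskar, against a median of 9.56 CPM over the 2N female heads. The 1N male head B5D stood apart in other genes, described below.

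CYP9AG7 was among the most abundant transcripts of every male head. In the 1N male heads it reached 5459 CPM in B1A, 6547 in B2A, 12838 in B3, 5816 in B4A and 4358 in B5D. In the 2N male heads it reached 10937 CPM in B11, 3701 in B12A, 14224 in B13, 12271 in B14 and 14345 in B15. B3 was the high library of the 1N heads and B12A the low one of the 2N heads, and the ranges of the 2 ploidies overlapped.

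Per transcript length, CYP9AG7 made up 0.421% (B12A) to 2.23% (B13) of the summed TPM (transcript abundance scaled for length and library) in these heads. In B13 it was the top-ranked gene of the library by TPM, and in B11, B14 and B15 it ranked 2. Its lowest rank was 16, in B12A. Among the P450 genes matched by a CYP symbol or synonym, it held 57.1% (B12A) to 78.2% (B13) of the summed TPM. Any P450 gene listed under a LOC symbol alone is not in this sum.

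Female heads held almost none. In the 2N female heads 4 of 5 libraries had no count and B21 had 6 counts, or 0.31 CPM. In the 3N female heads B32 had 2 counts, B34A had 1 and the other 3 libraries had 0. A count of 0 allows a level of up to 3 counts, which in the 2N female head B23 is 0.146 CPM. From summed counts, CYP9AG7 was 202750 times higher in 2N male than in 2N female heads (95% counting interval 93151 to 552480), and 133993 times higher in 1N male than in 2N female heads (61561 to 365122). Without B21, with no count left, these ratios are at least 325825 and at least 215330 (3 counts over the 4 remaining libraries). Against the 3N female heads, with 3 counts in all, the 2N male heads were 858405 times higher (293730 to 4162490). These intervals and floors cover counting error only.

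Female abdomens were equally low. In the 2N female abdomens B26A had no count, B28A had 1, B30 had 2 and B27 had 5, at most 0.12 CPM. In the 3N female abdomens B37A had 4 counts and B38 had 10, the other 3 libraries had 0, and the highest level was 0.19 CPM in B37A.

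Male abdomens held a low and uneven level. In the 2N male abdomens CYP9AG7 had 29.3 CPM in B16, 5.56 in B17, 9.82 in B18, 6.46 in B19 and 4.82 in B20, and B16 stood well above the others. In the 1N male abdomens it had 13.01 CPM in B10, 3.98 in B9, 0.10 in B7 and no count in B6A and B8. The 1N male abdomens therefore ran from the level of female libraries up to that of the 2N male abdomens. From summed counts, heads were 904 times higher than abdomens in 2N males (878 to 931) and 1864 times higher in 1N males (1739 to 2001). B16 held 2978 of the 4512 counts of the 2N male abdomens and B10 held 579 of the 795 of the 1N ones. Without B16 the 2N ratio was 1839 (1749 to 1934), and without B10 the 1N ratio was 5177 (4531 to 5943). In bulk tissue, fewer cells that express the gene and less RNA per cell cannot be told apart.

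**Figure D1:**
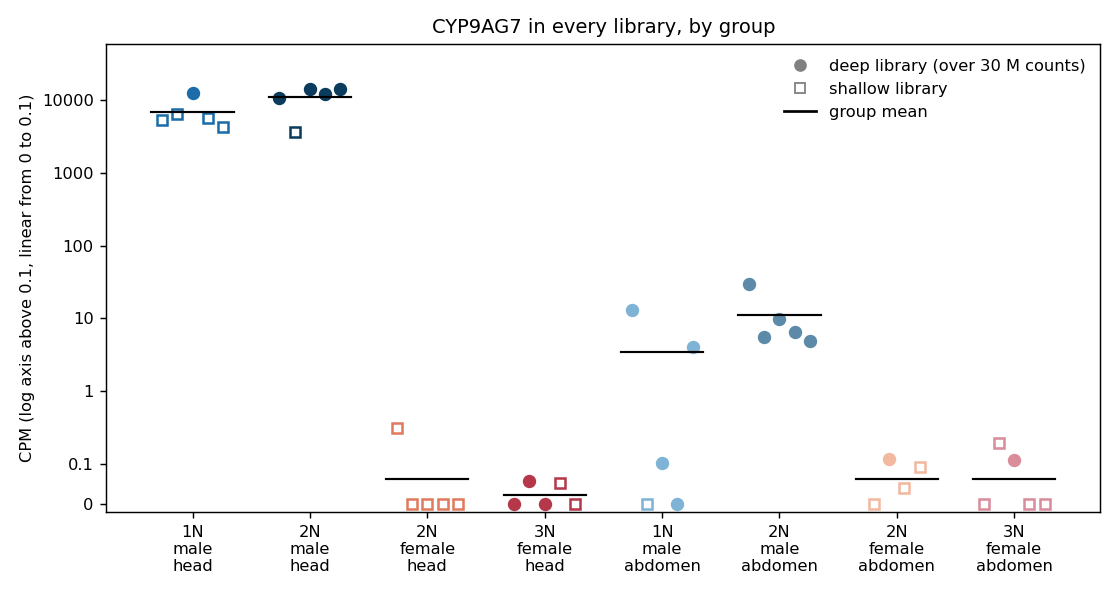
CYP9AG7 level (CPM, log axis above 0.1) in each of the 39 libraries by group, with filled circles for deep libraries, open squares for shallow ones and a line at each group mean. All 10 male heads lie at or above 3701 CPM, the male abdomens between 0 and 29.3 CPM, and every female library at or below 0.31 CPM.

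By group mean the order was 2N male heads (11095.5 ± 4371 CPM, SD, n = 5), 1N male heads (7003 ± 3356, n = 5), 2N male abdomens (11.2 ± 10.3, n = 5), 1N male abdomens (3.42 ± 5.63, n = 5) and then the 4 female groups. The female groups had means of 0.0621 ± 0.139 CPM (2N heads, n = 5), 0.0615 ± 0.0521 (2N abdomens, n = 4), 0.0612 ± 0.0888 (3N abdomens, n = 5) and 0.0217 ± 0.0297 (3N heads, n = 5). Neighbours in this order overlapped in their libraries, except at the break between male heads and the rest, where the lowest male head stood 126 times above the highest other library, B16.

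The trace in male abdomens was set beside Lop1 as a marker of head RNA. Lop1 had no count in all 9 female abdomens and in the male abdomens B6A and B8, the same 2 that lacked CYP9AG7. B16 was the highest male abdomen for both genes, with 0.324% of the male head mean of CYP9AG7 and 0.141% of that of Lop1. B10 followed for CYP9AG7 with 0.144% of the male head mean and held 0.0552% for Lop1. B19 was the next highest for Lop1, at 0.0898%, with 0.0714% for CYP9AG7. The remaining 5 male abdomens lay between 0.00113% and 0.109% for CYP9AG7 and between 0.00793% and 0.0863% for Lop1. Pdf, the brain marker, had no count in B9, B17 and B19, which held CYP9AG7 and Lop1, and 13 counts in B8, which held neither. It stood at 0.538% of its male head mean in B10, 0.388% in B18, 0.196% in B20, 0.181% in B16 and 0.0544% in B7. Female abdomens, without Lop1, also held Pdf, with means of 0.143 CPM in 2N and 0.0501 CPM in 3N. The male abdomens averaged 0.214 CPM of Pdf in 1N and 0.192 CPM in 2N. The part of head RNA in the abdominal trace was not tested.

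Ploidy was the comparison that the choice of the gene had not used. In male heads CYP9AG7 was 0.67 ± 0.39 higher in 2N than in 1N on the log2 scale (SE, 95% interval −0.157 to 1.496) and did not pass the test (adjusted p = 0.539, quasi-likelihood F test of edgeR over all genes tested in heads). The threshold was an adjusted p under 0.05, and 0.0738% of the 10846 genes passed it in that comparison. The CPM values of the 10 male heads were also permuted exactly between the ploidies. The difference in group means gave p = 0.175 in this permutation test (two-sided, n = 5 and 5), where the smallest possible is 0.00794.

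The depth classes moved with this value. The 5 shallow male heads held 3701 to 6547 CPM and the 5 deep ones 10937 to 14345 CPM, with no overlap. Every deep male head lay above every shallow one in 4.9% of 9763 genes that averaged 1 CPM or more in male heads, and below in 2.55%. Within the deep class the 1N library B3 had 12838 CPM and the 4 libraries of 2N averaged 12944 CPM. Within the shallow class the 4 libraries of 1N averaged 5545 CPM and the 2N library B12A had 3701 CPM. With a term for depth class in the fit, the ploidy difference was −0.27 ± 0.36 (log2, adjusted p = 0.802), opposite in sign to the value without it. Whether depth itself, a library batch or the animals set these 2 levels was not tested.

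In female heads the 3N minus 2N difference was −1.84 ± 1.57 (log2, edgeR adjusted p = 0.547), and 0.313% of genes passed. With the depth term it was −3.14 ± 1.32 (95% interval −5.96 to −0.31, adjusted p = 0.156). Both values rest on 6 counts against 3, a ratio of 2N to 3N of 4.23 with a counting interval of 0.904 to 26.2. The 2N female heads hold no deep library, so the depth term was estimated from the other head groups. With 9 counts in all female heads, that term rests mainly on the male heads, through which the gene also passed the count filter. No conclusion on ploidy in female heads, alone or set against males, is drawn from these values or their intervals. Without B21, which held all 6 counts, the value fitted with no depth term was 2.60 (edgeR adjusted p = 0.774). The ploidy difference in males exceeded that in females by 2.51 ± 1.65 (log2, edgeR adjusted p = 0.601), and without B21 it was −1.92. In this comparison of comparisons 0% of genes passed with edgeR, 1044 had an unadjusted p under 0.05, and DESeq2 called 12 and limma-voom 0.

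A search for genes with the same distribution asked for at least 1 CPM in the lowest male head and at least 10 times the highest of the other 29 libraries. It found 3 of 12402 genes (0.0242%), which were CYP9AG7, LOC100123365 and LOC103316980. Their lowest male head exceeded every other library 126, 52.7 and 47.2 times. Just outside lay LOC107980548 at 9.81 times, LOC100678345 at 5.14, LOC100124060 at 4.41 and LOC107981939 at 4.29. These genes were selected on the values given, so the values are a description.

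The count moved most with B5D. Without it, 9 genes had the pattern, with LOC100118127, LOC100124060, LOC100678345, LOC107980548, LOC116416759 and LOC116738555 added, and without the 3N female head B33 there were 4, with LOC107980548 added. LOC116416759 had 0.239 CPM in B5D, 1.02 to 11.5 CPM in the other male heads and at most 0.0825 CPM elsewhere.

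Likeness was also measured as Pearson's r of log2(CPM + 1) with CYP9AG7 over the 39 libraries, across 9762 other genes of at least 1 CPM in male heads. The libraries fall into the male heads and the rest, so r reports mainly that split and carries no p. The 12 highest were LOC100123365 (r = 0.981), LOC103316980 (0.978), LOC100678345 (0.977), LOC100124060 (0.965), LOC107980548 (0.957), LOC100115602 (0.945), LOC116738555 (0.943), LOC100123371 (0.941), LOC100118127 (0.919), LOC116416776 (0.913), LOC116415953 (0.909) and LOC100123567 (0.903). All 12 are protein-coding in the RefSeq gene table and carry no descriptive symbol, so no role is given for them. The next 3 were the gustatory receptor gene Gr32 (0.896), LOC107981371 (0.895) and the P450 gene CYP6CK11 (0.884).

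**Figure D2:**
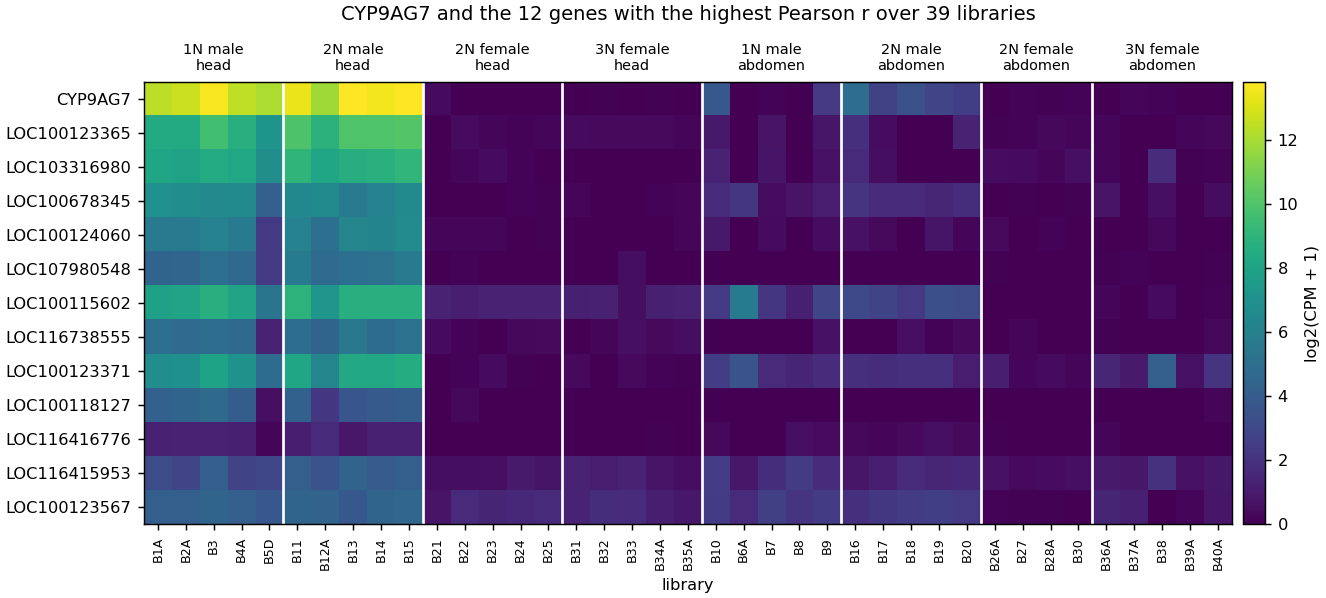
Level of CYP9AG7 and the 12 genes with the highest Pearson r, as log2(CPM + 1), in the 39 libraries ordered by group, dark for low and yellow for high. The 10 male heads are brighter than the other libraries in most rows. All rows share 1 colour scale, so genes of low level, such as LOC116416776, stay dark in male heads too. Among the male heads B5D is darker than its neighbours for most genes and by less for CYP9AG7.

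LOC100123365 had 341, 344, 802, 413 and 141 CPM in the 1N male heads B1A, B2A, B3, B4A and B5D. In the 2N male heads B11, B12A, B13, B14 and B15 it had 974, 470, 1008, 1042 and 1107 CPM. B3 and the deep 2N heads were high and B5D was lowest, and no library outside the male heads passed 2.68 CPM, in the male abdomen B16.

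LOC103316980 had 279, 245, 360, 314 and 113 CPM in the 1N male heads in the same order. It had 520, 285, 389, 434 and 540 CPM in the 2N male heads. Elsewhere its highest level was 2.39 CPM, in the 3N female abdomen B38, and female heads stayed at or below 0.34 CPM.

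LOC100678345 had 125, 106, 89.2, 98.02 and 18.1 CPM in the 1N male heads. It had 84.7, 96.8, 49.2, 69.6 and 91.4 CPM in the 2N male heads. Unlike CYP9AG7 it had deep libraries, such as B13, below shallow ones, such as B1A, and it reached 3.52 CPM in the male abdomen B6A.

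LOC100124060 had 48.2, 50.7, 67.7, 48.6 and 4.16 CPM in the 1N male heads. It had 69.7, 31.5, 76.7, 74.2 and 99.8 CPM in the 2N male heads. All other libraries were at or below 0.944 CPM, and B5D stood far below the next lowest male head, B12A.

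LOC107980548 had 20.8, 21.97, 32.4, 25.3 and 4.16 CPM in the 1N male heads. It had 51.6, 27.3, 32.3, 35.7 and 50.9 CPM in the 2N male heads. It had no count in any male abdomen, and its highest level elsewhere was 0.424 CPM in the 3N female head B33.

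LOC100115602 had 238, 263, 423, 262 and 39.1 CPM in the 1N male heads. It had 485, 146, 404, 426 and 405 CPM in the 2N male heads. It was less confined than the others, with 49.4 CPM in the male abdomen B6A, above its level in the male head B5D, and up to 1.60 CPM in female heads.

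The other 6 had median levels of 1.397 CPM (LOC116416776) to 193 CPM (LOC100123371) in male heads and at most 2.46 CPM in any female head. LOC100123371 reached 17.3 CPM in the 3N female abdomen B38. LOC116415953 and LOC100123567 had up to 4.65 and 5.15 CPM in male abdomens, against male head medians of 12.5 and 18.6 CPM.

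In 7 of these 12 genes every deep male head lay above every shallow one, against 4.9% of all genes compared. They were chosen by their correlation with CYP9AG7, which splits by depth itself, so this count is partly fixed by the choice and is a description. In 11 of the 12 B5D was the lowest male head, which it was in 29.8% of the 9763 genes of at least 1 CPM. The median ratio of B5D to the median of the other 1N male heads was 0.176 over the 12, against 0.984 over all genes compared. CYP9AG7 departed from most of them there, with a ratio of 0.705, and B12A rather than B5D was its lowest male head. LOC100123567 had a similar ratio, 0.727, with B5D as its lowest male head. LOC116415953, at 0.964, was the gene of the 12 in which B5D was not lowest. The cause of the low levels in B5D was not tested.

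**Figure D3:**
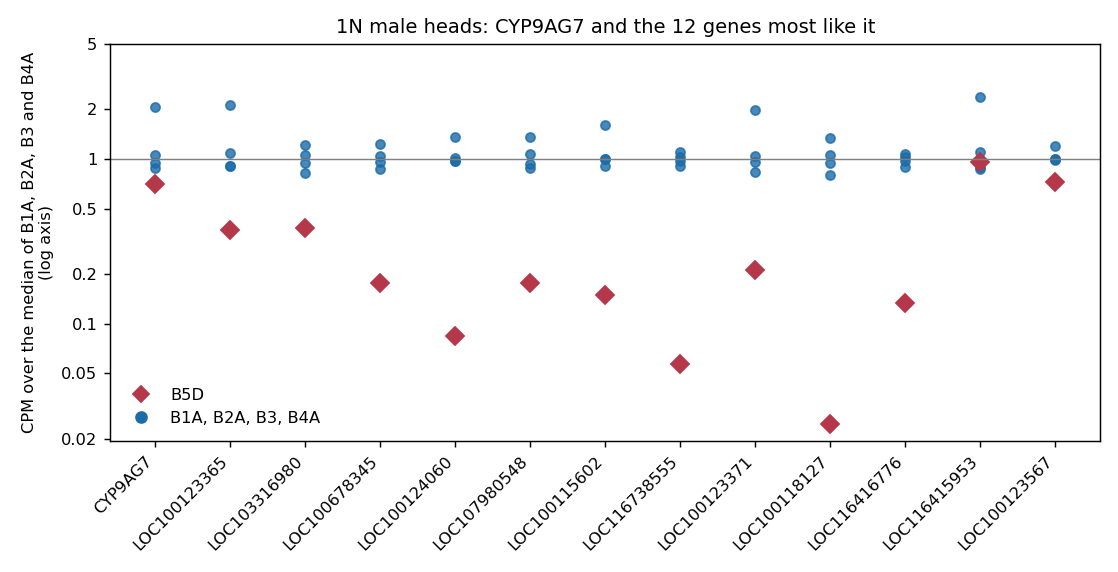
Levels in the 5 male heads of 1N for CYP9AG7 and the 12 genes most like it, each divided by the gene's median over B1A, B2A, B3 and B4A (log axis), with B5D as diamonds. B5D sits at 0.705 for CYP9AG7 and between 0.0245 and 0.964 for the other genes.

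None of the 12 passed the ploidy test in male heads with edgeR, where 4 had an unadjusted p under 0.05 (33.3%, against 10.7% of all genes), and DESeq2 and limma-voom also called 0. Their median 2N minus 1N difference was 0.65 (log2) against −0.01 over all genes. The choice by r used these same male heads, in which CYP9AG7 was 0.67 higher in 2N, so neither value is independent of it. With the depth term the median was 0.20 against −0.02. The largest was LOC100123365, 408 ± 242 CPM in 1N and 920 ± 257 in 2N (1.18 ± 0.33, edgeR adjusted p = 0.237), and 0.53 ± 0.27 with the depth term (adjusted p = 0.438). Without B3 it rose in 2N by 1.58 ± 0.29 (adjusted p = 0.0253), the only call among the 3 genes of the pattern under any left-out male head. All 4 remaining 1N libraries were then shallow.

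Position was read from the RefSeq table of assembly Nvit_psr_1.1, for order alone. LOC100123365 and LOC100123371 are neighbours, and both overlap the span of LOC100118566, as does LOC103316980. CYP9AG7 lies between LOC100117583 and LOC100124156 and inside the span of LOC100117668, and none of these 3 shares its distribution. LOC100117583 averaged 7.96 CPM in 2N male and 9.04 CPM in 2N female heads. LOC100124156 averaged 20.4 CPM and 21.8 CPM in the same groups, and LOC100117668 averaged 2.73 CPM and 3.06 CPM. Of the 12 genes, 10 overlap another gene in the table, and without strand information reads of overlapping genes cannot be told apart.

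Within heads alone a broader set matched CYP9AG7. Over the 20 heads the 12 highest r ran from 0.984 to 0.997, and 7 of these genes were not among the 12 above. All 7 were abundant in male abdomens too, with medians over 10 CPM. LOC100114997 had 1528 to 8937 CPM in male heads, at most 4.05 CPM in female heads and 13335 to 99370 CPM in male abdomens. LOC100379181 had 13.6 to 36.01 CPM in male heads and 117 to 521 CPM in male abdomens. LOC100121327, LOC100121233, LOC100121146 and the P450 genes CYP6CK8 and CYP4AB14 complete the 7. For LOC100121146 the library B5D was the highest male head, at 25.2 CPM. In the same male abdomens CYP9AG7 ran from 0 to 29.3 CPM, and LOC100123365 and LOC103316980 did not pass 2.68 CPM.

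The closest relatives by name did not share its distribution. CYP9AG4 was the most abundant of them, with 1095 ± 403 TPM in 2N male heads, 814 ± 82.9 in 2N female heads, 1382 ± 104 in 2N male abdomens (SD, n = 5) and 1.67 ± 0.678 in 2N female abdomens (n = 4). CYP9AG3 had the same order of groups at lower levels, with 249 ± 136, 127 ± 37.1 and 282 ± 41.3 TPM, and 0.237 ± 0.365 in 2N female abdomens. The 3N female abdomens held more of both, with 56.0 ± 47.2 TPM of CYP9AG4 and 8.82 ± 6.79 of CYP9AG3 (n = 5). In CYP9AG7 the 2N male heads held 16128 ± 7149 TPM and the 2N female heads 0.092 ± 0.206.

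CYP9AG6 was higher in abdomens of both sexes, with 15.3 ± 6.75 TPM in 2N male heads, 6.95 ± 1.32 in 2N female heads, 31.8 ± 11.5 in 2N male abdomens (SD, n = 5) and 73.3 ± 3.09 in 2N female abdomens (n = 4). The transcribed pseudogene CYP9AG8P held 44.1 ± 4.92 TPM in 2N male heads and 42.1 ± 4.33 in 2N female heads, and was listed at 0 in all 2N female abdomens. Reads shared by near-identical copies of these genes can be divided among them in estimated counts. The estimated count of CYP9AG7 was exactly whole, with no tolerance, in all 39 libraries, and the part of shared reads was not tested.

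**Figure D4:**
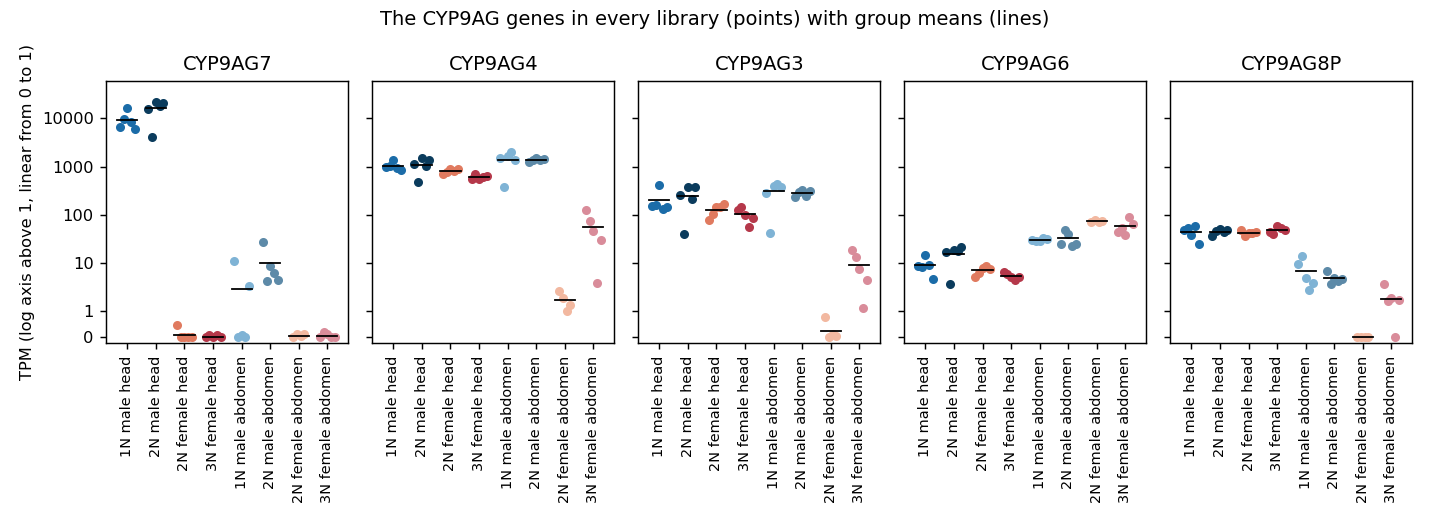
TPM of the 5 CYP9AG genes in every library (points) with group means (lines), on a log axis above 1 TPM. CYP9AG7 separates male heads from all other groups, CYP9AG4 and CYP9AG3 are present in heads of both sexes and in male abdomens, CYP9AG6 is highest in female abdomens, and CYP9AG8P is highest in heads.

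In 2N male against 2N female heads, 12 of the 38 other P450 genes tested rose (31.6%; 15.9% of all genes) and 3 fell (7.89%; 12% of all genes), with a median of 0.52 (log2) against −0.02 over all genes. By clan, 8 of 23 in the CYP3 clan rose (34.8%) and 1 fell (4.35%). In the CYP4 clan 4 of 14 rose (28.6%) and 2 fell (14.3%). These clan counts are from the fit without the depth term. Depth class runs close to sex in this comparison. With the depth term 7 rose, which were CYP4AB14, CYP4AB23, CYP4AB9, CYP6AQ9, CYP6CK11, CYP6CK8 and CYP9P5 (14.3% of all genes rose in that fit). With it 4 fell (10.1% of all genes), which were CYP4AB12, CYP4AB18, CYP6AS30 (−1.95 ± 0.24, adjusted p = 2.35e-05) and CYP6AQ5 (−0.96 ± 0.34, adjusted p = 0.0488), the last 2 of which did not pass without the term. The list of P450 genes was drawn up with results of these data known.

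The largest rises were in CYP6CK11, CYP6CK8, CYP4AB14 and CYP4AB9. CYP6CK11 had 209, 38.4, 197, 211 and 226 TPM in B11 to B15 and at most 0.30 TPM in the 2N female heads, a rise of 10.73 ± 0.92 (log2, edgeR adjusted p = 1.08e-07). Its male abdomens were low as well, with 4.50 ± 1.36 TPM in 2N (SD, n = 5). Its r of 0.884 was the highest among the P450 genes matched by symbol. Unlike CYP9AG7, it held much the same level in female abdomens, with 4.38 ± 0.234 TPM in 2N (n = 4) and 4.34 ± 1.54 in 3N (n = 5). In B5D it held 6.16 TPM against 54.0 to 128 in the other 1N male heads. That was below the 8.22 TPM of the 1N male abdomen B9.

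CYP6CK8 had 185, 57.7, 193, 208 and 240 TPM in the 2N male heads and at most 0.80 TPM in the 2N female heads (8.91 ± 0.71, edgeR adjusted p = 5.15e-08). CYP4AB14 had 1408, 663, 1201, 1178 and 1426 TPM against 4.84 to 11.7 TPM (7.20 ± 0.50, adjusted p = 6.77e-09). CYP4AB9 had 285, 355, 150, 220 and 263 TPM against 10.0 to 13.9 TPM (4.51 ± 0.39, adjusted p = 1.08e-07). The 4 were taken as the largest rises of the family. Unlike CYP9AG7, these 3 were also abundant in 2N male abdomens, with 153 ± 9.95 TPM for CYP6CK8, 1686 ± 159 for CYP4AB14 and 324 ± 82.3 for CYP4AB9 (SD, n = 5).

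The 3 falls were CYP4AB18, CYP4AB12 and the transcribed pseudogene CYP6CK13P. CYP4AB18 had 0.154 ± 0.162 TPM in 2N male and 11.8 ± 8.33 in 2N female heads (−6.00 ± 0.77, edgeR adjusted p = 1.47e-05). CYP4AB12 had 5.15 ± 1.48 against 73.9 ± 18.4 TPM (−3.76 ± 0.37, adjusted p = 6.94e-07). CYP6CK13P had 13.7 ± 2.92 against 24.4 ± 4.38 TPM (−0.73 ± 0.26, adjusted p = 0.0425), and with the depth term it no longer passed (adjusted p = 0.148).

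**Figure D5:**
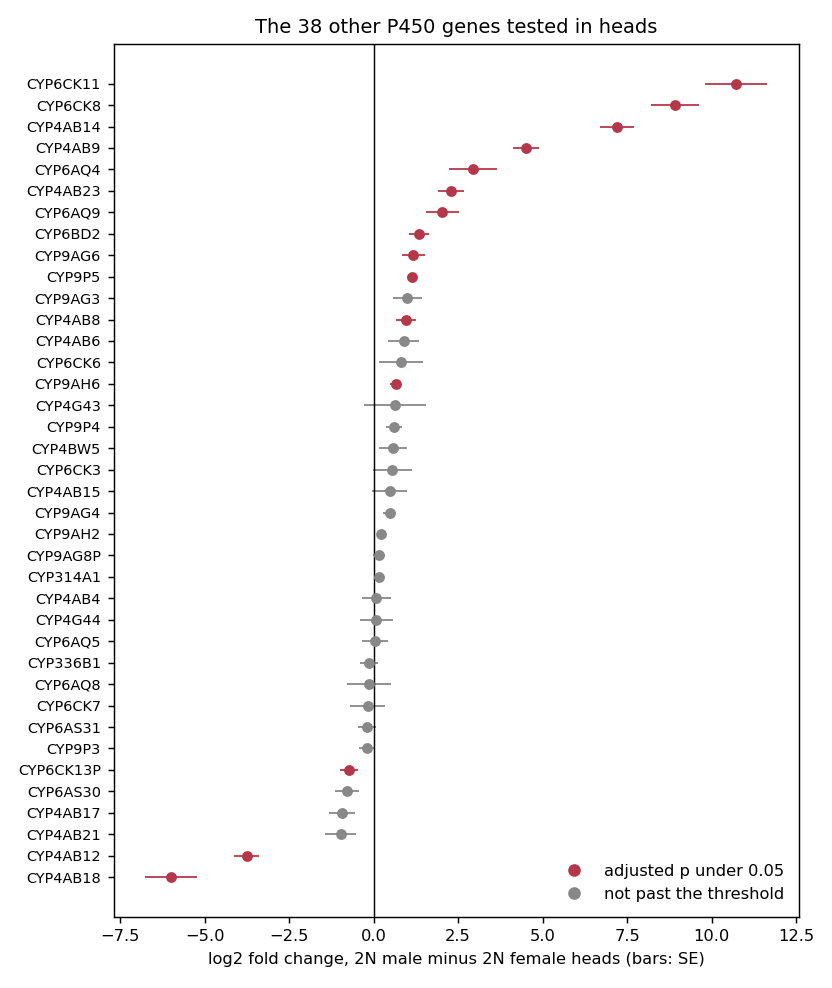
Log2 fold change with SE between 2N male and 2N female heads for the 38 other P450 genes tested, red where the adjusted p was under 0.05. CYP6CK11 at 10.73 and CYP6CK8 at 8.91 lie farthest to the right, and CYP4AB18 at −6.00 farthest to the left.

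Of the other CYP9 genes, 3 rose, which were CYP9P5 (1.13 ± 0.15, log2, edgeR adjusted p = 2.37e-05), CYP9AH6 (0.65 ± 0.17, adjusted p = 0.00753) and CYP9AG6 (1.18 ± 0.33, adjusted p = 0.0116). With the depth term CYP9P5 alone of them passed (adjusted p = 0.00107). The others did not pass, with log2 differences of 1.00 for CYP9AG3, 0.48 for CYP9AG4, 0.60 for CYP9P4, 0.22 for CYP9AH2, 0.17 for CYP9AG8P and −0.21 for CYP9P3. Every one of these CYP9 genes other than CYP9AG6 averaged under 2 TPM in 2N female abdomens. In 3N female abdomens the means of the same genes were higher, from 1.74 TPM (CYP9AG8P) to 35.1 TPM (CYP9AH6) and 56.0 TPM (CYP9AG4).

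Between 2N male heads and 2N male abdomens, 7 of 41 other P450 genes were higher in heads (17.1%; 32.8% of all genes) and 25 were lower (61%; 32.5% of all genes), with a median of −1.59 (log2) against 0 over all genes. Summed without CYP9AG7, the P450 genes matched by symbol held 5744 ± 1476 TPM in 2N male heads and 18255 ± 3175 in 2N male abdomens (SD, n = 5). With CYP9AG7 the sums were 21873 ± 8499 and 18265 ± 3170 TPM. In 2N female heads the sum was 2674 ± 385 TPM either way.

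Ploidy moved none of the 38 other P450 genes past the threshold with edgeR in male heads, where 4 had an unadjusted p under 0.05 (10.5%, against 10.7% of all genes) and DESeq2 and limma-voom called 0. In female heads edgeR called 0, with 6 at an unadjusted p under 0.05 (15.8%, against 18.3% of all genes). There DESeq2 called 4 (10.5%, against 5.41% of all genes) and limma-voom called 1 (2.63%, against 0.479%).

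Other detoxification genes and odorant-binding protein genes were also compared between 2N male and 2N female heads. Depth class runs close to sex here too, and the values below are from the fit without the depth term. Of 16 glutathione transferases, which conjugate glutathione to reactive compounds, 3 rose and 3 fell (18.8% each way, against 15.9% and 12% of all genes), with a median of −0.09 (log2) against −0.02 over all genes. GstT2 rose from 53.5 ± 14.9 to 410 ± 70.2 CPM (2.97 ± 0.32, edgeR adjusted p = 1.82e-06) and GST-mic1 from 134 ± 18.5 to 499 ± 152 CPM (1.92 ± 0.30, adjusted p = 0.000115). GstS3 (−1.41 ± 0.23, adjusted p = 0.000192) and GstS8 (−0.89 ± 0.25, adjusted p = 0.0111) fell. Of 10 carboxylesterases, which hydrolyse esters, 3 rose (30%) and 2 fell (20%), against the same shares of all genes, with a median of −0.41. CCE-A9 (1.33 ± 0.27, adjusted p = 0.00107) and CCE-A5 (1.56 ± 0.37, adjusted p = 0.00357) rose, and CCE-B2 (−1.13 ± 0.32, adjusted p = 0.0118) and CCE-A4 (−2.38 ± 0.79, adjusted p = 0.0303) fell. Of 2 odorant-binding protein genes none rose and 1 fell, against 15.9% and 12% of all genes. It was OBP19 (−1.18 ± 0.29, edgeR adjusted p = 0.00438), and 2 genes are too few for a share.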

How the data were processed

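Per the labels' protocols, RNA was extracted without DNase treatment, selected with poly-T beads and sequenced from NEBNext Ultra libraries. STAR 2.7.11a and RSEM 1.3.1 are named, per the submitters' processing notes. Build, annotation and strand setting were not given in the sources used here. The authors deposited estimated counts for 14621 genes, not normalized (16.8% of values not whole), which were rounded. The authors also deposited TPM for 14613 genes, used for levels between genes. All 14621 symbols matched the RefSeq table of Nvit_psr_1.1, used for names and order alone.

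Levels are CPM with TMM factors over 39 libraries. Tests used edgeR 4.0.16 (quasi-likelihood F test, filterByExpr, R 4.3.3, two-sided, Benjamini-Hochberg over all genes tested): 20 heads in one fit (10846 genes), 39 libraries for tissue (12402 genes). SE is the fold change over the square root of F, and its 95% interval uses the residual degrees of freedom. DESeq2 1.42.0 and limma 3.58.1 (voom, and log2(TPM + 1)) were alternatives. Scripts were tested on simulated data. Count intervals are exact at 95%. The depth border was 30 M. All 76 within-group pairs differed beyond sampling noise (chi-square at least 10.2 per degree of freedom).

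CYP9AG7, the lists and the tests were chosen with earlier results of these data known. Named genes are the 12 with the highest r, all with the male head pattern, every CYP9 gene, the 4 largest P450 rises and falls past the threshold and up to 2 genes per direction of each other list. Gene lists were matched on symbols and synonyms, so family members listed under LOC symbols alone are not covered. Electron donors, UDP-glycosyltransferases and chemosensory proteins matched no symbol and were not analysed here.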

Additional observations from a re-analysis of the deposited data

Results flagged for a closer look

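A library was marked where its gap to the nearest other library of its group, relative to the group's range, exceeded Dixon's 95% value. This was run on CYP9AG7 and the 12 genes most like it in the 52 groups whose highest library reached 1 CPM, and it marked 15 values in 9 libraries. The nominal rate of 1 group in 20 does not apply to this count. Some groups reached 1 CPM only in the library then marked, such as B38 for LOC103316980, and the genes were chosen to correlate. The marks are therefore a description, and no excess over chance is read from them. For CYP9AG7 they were the 1N male head B3 at 12838 CPM, above the other 1N heads, and the 2N male abdomen B16 at 29.3 CPM, above the other 2N male abdomens. In the 2N male head B12A, LOC100123365 was low at 470 CPM and LOC100115602 was low at 146 CPM. In the 1N male head B5D, LOC116738555 was low at 1.63 CPM and LOC116416776 at 0.191 CPM. In B3, LOC116415953 was high at 16.7 CPM. The 3N female abdomen B38 was high for LOC103316980 (2.39 CPM), LOC100123371 (17.3 CPM) and LOC116415953 (2.95 CPM). In male abdomens, LOC103316980 was high in B16 at 2.18 CPM, LOC100115602 was high in B6A at 49.4 CPM and LOC100123371 was low in B20 at 1.18 CPM. LOC100115602 was low in the 3N female head B33 at 0.424 CPM, and LOC100123371 was high in the 2N female abdomen B26A at 1.26 CPM. The causes were not tested.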

How the results depend on the processing

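The ploidy difference of CYP9AG7 in male heads passed no threshold under any alternative. It was −0.27 (log2) both with a term for deep libraries and with one for libraries whose names end in a letter, which coincide in male heads, and 0.54 to 1.01 with each head of those groups left out in turn (lowest without B5D, highest without B3). In female heads the range was −2.80 to 2.60, reversed without B21, and for ploidy by sex −1.92 to 3.47, also reversed without B21. Leaving out B5D, B6A, B21 and B39A together, chosen after seeing the data, gave 2.62 and −2.08. With so few counts in female heads these values have little precision. Genes of the male head pattern past the ploidy threshold numbered 0 to 1 (1 without B3). The pattern held in 5 genes at a fold of 5, in 10 without the 4 libraries and in 3 to 9 with 1 library left out (9 without B5D). Other P450 genes higher in 2N male than female heads numbered 12 in the main fit and 7 with the term for deep libraries. With the term for letter-named libraries they numbered 15. The 2 terms differ in the 2N female heads, which are all shallow and have no name ending in a letter. With 1 library left out the counts were 11 to 14 higher and 2 to 3 lower in male than female heads, and 7 to 8 higher and 23 to 25 lower in heads than abdomens. Processing moved the last count more, to 20 with log2(TPM + 0.1), 21 with library totals alone, 27 with DESeq2 and 29 with limma-voom. Of the 12 genes named by Pearson's r, 4 were kept with Spearman's rho, 5 over heads alone, 11 with log2(CPM + 0.1), 12 with log2(TPM + 1) and 10 without the 4 libraries. No paired analysis was possible because library names are unique and no label ties libraries across groups.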
